A study of Mus musculus with 16 samples.

Results

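The nuclear receptors are a superfamily of transcription factors, and 46 of their genes were listed by name, among them the 3 retinoid X receptor (RXR) isotypes, their dimerization partners, the orphan receptors and the steroid receptors. A listed gene entered by having a probe in the table of processed values, whatever its level. The list itself was chosen with earlier results of these data known. Of the 46, 43 had a probe, out of 19057 genes with one, and the probes annotated on the array held none for Nr1h2, Nr2e3 or Nr2f1, which were not analysed here. RNA from whole liver of 2-month-old mice was hybridized to 16 Illumina Ref-6 v2 arrays. The 4 groups were wild-type (WT) males (n = 3), WT females (n = 5), and males (n = 3) and females (n = 5) of the genotype labelled hs-RXRa-Dex4-/-, called hs-KO below, in which Rxra is disrupted in hepatocytes only. The label refers to exon 4, and earlier mice of this kind lack the DNA-binding domain of the receptor in hepatocytes. The promoter driving the recombinase and the strain were not given in the sources used here, other liver cells keep their own Rxra, and no treatment was stated for any group. The labels number the samples without naming animals, so p-values measure the spread between these samples. In whole tissue, fewer cells of a type and less RNA per cell cannot be told apart.

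Most of these receptors share a zinc finger domain that reads short hexamers in DNA and a pocket that binds a lipophilic ligand. RXR pairs with many of them. With the permissive partners, such as the peroxisome proliferator-activated receptors (PPARs), the liver X receptor LXR and the bile acid receptor FXR, a ligand of either side can activate the pair, whereas with the retinoic acid, thyroid hormone and vitamin D receptors the partner's ligand leads. The liver uses them to control bile acid, lipid, carbohydrate and drug metabolism. Orphan receptors such as HNF4α and LRH-1 act in the same tissue without a classical hormone, and steroid receptors bind as homodimers after hormone arrives.

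Promoter letters are given for 3 genes on which the results turn, because each window holds a hexamer or pair related to its family or to hormone signalling. Windows are the 250 bases before a RefSeq transcription start of the GRCm38.p6 build, read 5′ to 3′ on the gene's strand, with the match in capitals. The Rarb window, chr14:16575477-16575726 on the minus strand, holds a direct repeat of GTTCA, its copies separated by 6 bases of any kind, that begins 52 bases before the start, in the place of the well-known retinoic acid response element of this gene. The Rxrg window, chr1:167618015-167618264 on the plus strand, belongs to one of 2 annotated starts and holds the receptor core hexamer AGGTCA 88 bases before it. The Esr1 window, chr10:4709908-4710157 on the plus strand, also belongs to one of 2 starts and holds TTCNNNGAA, the palindrome that STAT factors read, 188 bases before it. No other window searched for Rxrg or Esr1 held the motif shown for that gene.
Rarb: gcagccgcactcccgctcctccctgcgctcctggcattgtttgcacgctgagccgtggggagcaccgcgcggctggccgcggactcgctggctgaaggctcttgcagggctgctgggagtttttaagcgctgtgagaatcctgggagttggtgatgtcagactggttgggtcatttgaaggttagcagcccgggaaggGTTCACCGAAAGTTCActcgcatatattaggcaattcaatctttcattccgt
Rxrg: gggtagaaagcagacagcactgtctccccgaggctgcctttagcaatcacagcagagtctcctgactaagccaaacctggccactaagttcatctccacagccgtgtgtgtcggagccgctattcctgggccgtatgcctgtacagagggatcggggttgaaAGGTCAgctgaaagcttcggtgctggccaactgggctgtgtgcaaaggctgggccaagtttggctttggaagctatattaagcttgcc
Esr1: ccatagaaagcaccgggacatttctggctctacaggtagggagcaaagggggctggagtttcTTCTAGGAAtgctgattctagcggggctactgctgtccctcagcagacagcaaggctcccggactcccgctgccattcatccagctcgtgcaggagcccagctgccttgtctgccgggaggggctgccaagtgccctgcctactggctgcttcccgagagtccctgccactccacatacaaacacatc

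Over both strands of 32851 promoter windows of this length, AGGTCA was present in 14.02%, the GTTCA pair in 0.067% (22 windows), TTCNNNGAA in 7.02% and the E-box CACGTG in 6.02%. Of the 46 receptors, 42 were matched to 63 windows. AGGTCA was found in 11 of these (17.5%), from 10 receptors (Nr0b1, Nr1d2, Nr1h4, Nr5a2, Nr6a1, Pparg, Rarg, Rxra, Rxrg and Thrb). The GTTCA pair occurred in the Rarb window alone. TTCNNNGAA and CACGTG were each found in 5 windows (7.94%), the former in Esr1, Esrrb, Nr0b2, Rara and Rarb and the latter in Esr2, Nr0b2, Nr1i3, Rara and Thrb. In Rarb the TTCNNNGAA match overlaps the GTTCA pair. A match describes letters in the window and was not tested as a binding site.

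Across the arrays, 33.3 to 33.4% of probes were called detected, a call made when the intensity was above 3 times the root mean square of that array's values below 0 (a threshold of 20.9 to 21.0 intensity units). Each array's mean correlation with others of its group was 0.970 to 0.983, with female WT 4, female hs-KO 9 and female WT 2 lowest. All 8 hepatocyte markers were detected, with summed intensities of 142342 to 170572. Summed markers ranged from 4021 to 13924 for Kupffer cells and macrophages (8 of 10 listed were detected), from 126 to 375 for cholangiocytes (2 of 8), from 11.8 to 81.0 for B cells (1 of 6), from 28.5 to 105 for T and NK cells (2 of 8), from 118 to 1543 for neutrophils (3 of 8) and from 12491 to 28565 for erythroid cells (3 of 5). No adipocyte marker of 5 was detected on 3 arrays. The summed exocrine pancreas markers, led by Amy2a5, were 14680 to 20837 on WT arrays and 22460 to 31751 on hs-KO arrays, and Cpa1, Ctrb1 and Prss2 of the same list were detected on no array.

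Taking the brightest probe of each gene, 20 of the 43 receptors with a probe were detected on all 16 arrays, 6 on 3 to 15 arrays, 3 on 1 or 2 and 14 on none. The 26 detected on at least 3 arrays made up 60.5% of the family, beside 52.0% of all genes with a probe, and those detected on every array made up 46.5%, beside 37.2%. All 3 RXR isotypes and all 7 measured permissive partners passed this limit, but only 3 of 6 nonpermissive partners, 3 of 4 REV-ERB and ROR receptors, 1 of 2 HNF4 receptors, 4 of 5 NR2 orphans, 2 of 5 steroid receptors, 1 of 3 estrogen-related receptors and 2 of 3 NR5 and NR6 receptors did. Neither the 3 NR4A receptors nor the 2 NR0B receptors passed it. The number detected was 28 at a threshold of 2 times and 23 at 5 times the root mean square.

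The 14 receptors whose brightest probe was detected on no array were Rara, Thra, Thrb, Rorb, Hnf4g, Nr2c2, Esr2, Nr3c2, Pgr, Nr4a1, Nr4a2, Nr5a1, Nr0b1 and Nr0b2. Of these only Nr5a1 had another probe above the threshold, on 1 array (21.8). Several are well known in liver. Thrb, the main hepatic thyroid hormone receptor, lay between -14.8 and 10.1 intensity units, and Nr0b2, the bile acid-induced corepressor SHP, between -12.2 and 3.62. Rara, the retinoic acid receptor α, lay between -9.48 and 16.7. These values are below the threshold of each array, and they state what these probes measured rather than an absence of the transcripts. Esrrb and Esrrg passed on 2 arrays each and Nr4a3 on 1, so none of the 3 was tested. In the plot of receptor levels, points of each gene are compared only with points of the same gene, because probes of different genes differ in brightness for equal RNA.

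**Figure D1:**
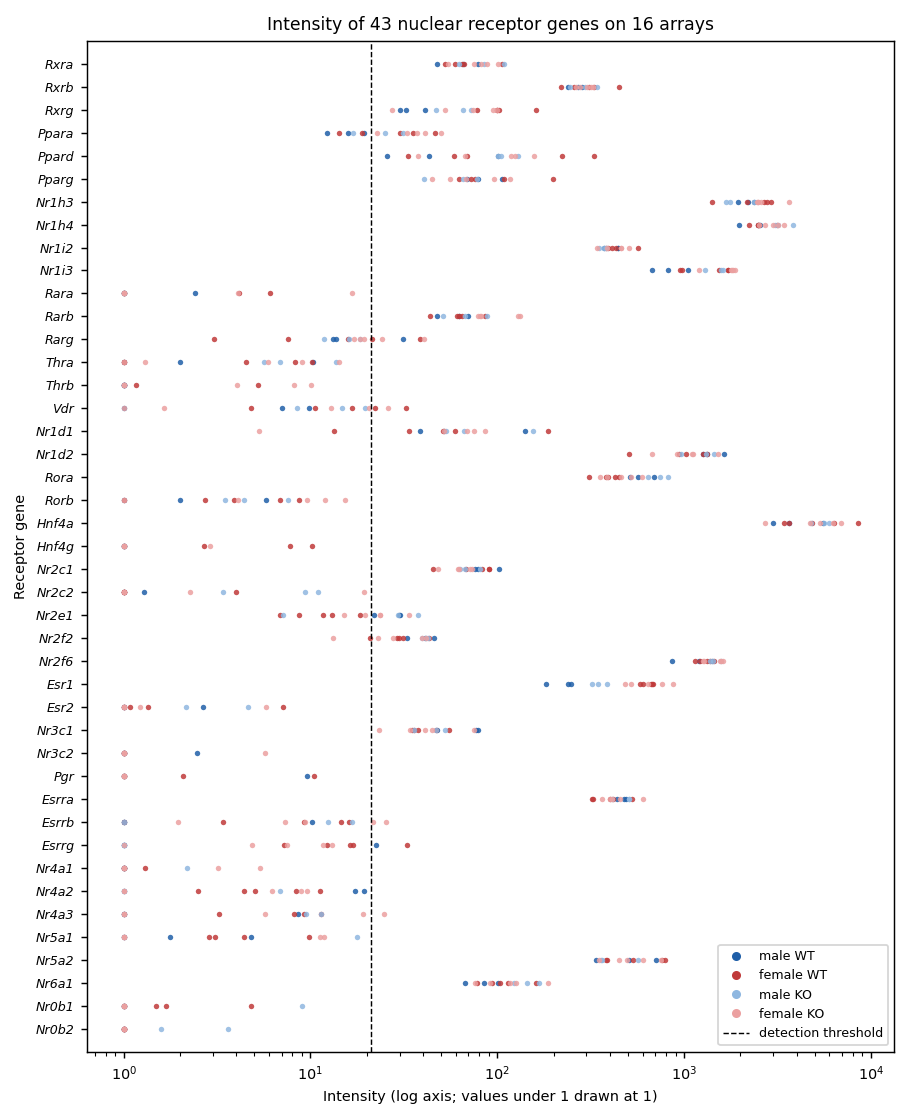
Intensity (log axis, values under 1 drawn at 1) of the 43 receptors with a probe, 1 point per array, coloured by sex and genotype (KO is hs-KO). The dashed line is the detection threshold near 21.0, and 14 receptors have every point to its left.

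The 26 detected receptors were tested with limma in a fit to all 9906 detected genes, on log2(intensity + 16), a scale that understates changes of dim genes. Between sexes in WT liver 2 of the 26 passed (Esr1 and Rxrg, both lower in males), which is 7.69% beside 3.73% of all genes in either direction and 2.11% lower in males. Between sexes in hs-KO liver 1 passed (Esr1, lower in males), beside 2.38% of genes in either direction and 1.39% lower in males. Between genotypes none passed in males, beside 1.56% of genes, or in females, beside 2.38%, and none passed for the interaction of sex and genotype, beside 0.0909%. With arrays weighted by their quality 4 receptors passed between male genotypes (Esr1, Nr1h4, Nr1i3 and Nr6a1, all higher in hs-KO), beside 16.3% of genes in that fit, and 6 between WT sexes, beside 14.2%. At an unadjusted p under 0.05 the numbers of receptors were 6, 3, 4, 3 and 2 in these 5 comparisons, where the shares of all genes were 17.4%, 14%, 14.3%, 12.4% and 8.62%. Groups did not overlap for 4 receptors between WT sexes and 3 between hs-KO sexes, beside 11.5% and 13.1% of genes, and for 5 between male genotypes and 0 between female genotypes, beside 23.2% and 3.89%. Counts this small, weighted or not, do not set the family apart from the background.

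Differences were small for most receptors. In males the estimated genotype difference over the 26 receptors ran from -0.45 to 0.94 with a median of 0.20 (0.02 over all genes), and 17 of the 26 intervals lay within 1 log2 unit of 0. In females it ran from -0.59 to 0.54 with a median of 0.04 (0.00 over all genes), and 23 intervals lay within 1 unit. The median sex difference of the receptors, males over females, was -0.11 in WT and 0.04 in hs-KO (-0.02 and 0.01 over all genes). The plot of differences shows that the widest intervals belong to Ppard and Nr1d1.

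**Figure D2:**
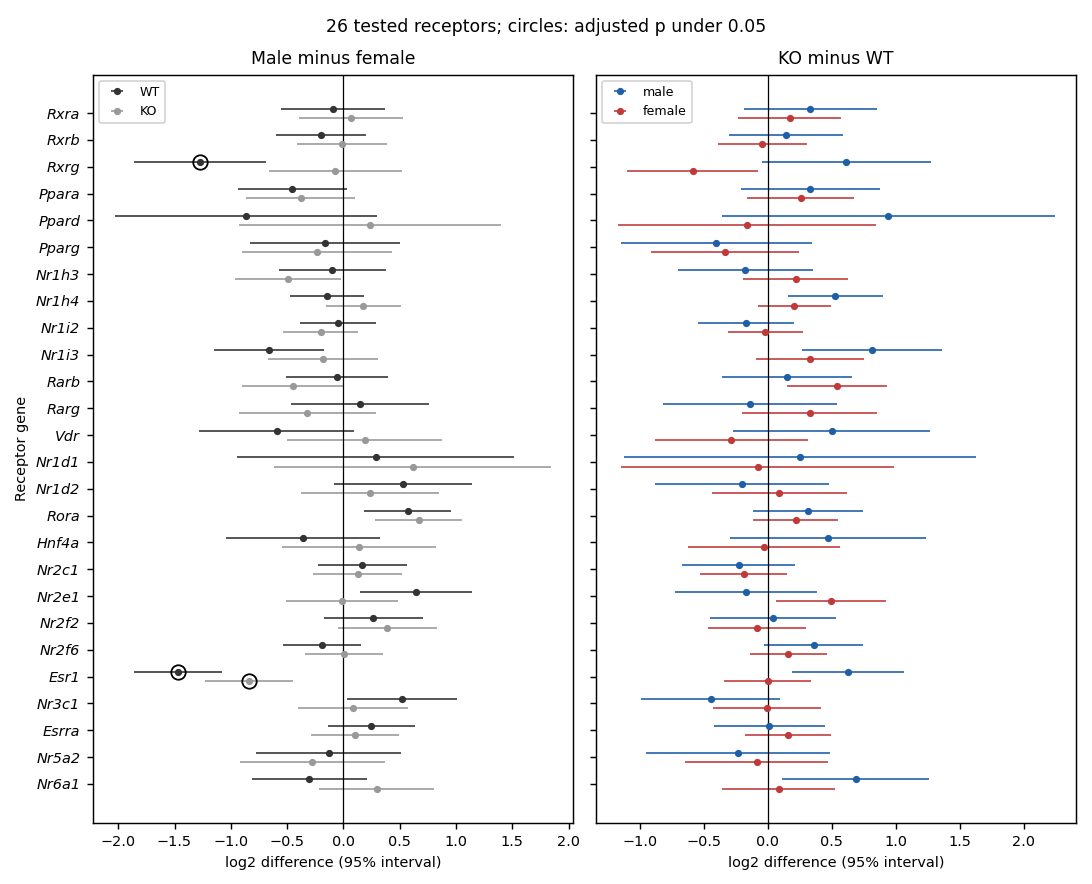
log2 differences with 95% intervals for the 26 tested receptors, males minus females (left, WT and hs-KO) and hs-KO minus WT (right, males and females). The circled points, Esr1 in both sex comparisons and Rxrg in WT, are those with an adjusted p under 0.05.

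Among the RXR isotypes, only Rxrg differed beyond the threshold in any comparison, and it did so between WT sexes. Rxra, the isotype deleted in hepatocytes, gave intensities of 78.4, 47.7 and 65.5 in WT males and 62.1, 109 and 84.4 in hs-KO males. In females it gave 59.7, 64.4, 52.6, 106 and 66.2 in WT and 88.6, 101, 74.8, 54.2 and 81.7 in hs-KO. All 4 groups overlapped, and the hs-KO arrays were not lower. The difference, hs-KO over WT, was 0.33 in males (95% interval -0.18 to 0.85, limma adjusted p = 0.546) and 0.17 in females (-0.23 to 0.57, adjusted p = 0.817). Rxra had 1 probe, whose place relative to the disrupted exon was not given in the sources used here, so this measurement does not test the deletion.

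Rxrb, an RXR isotype expressed in many tissues, measured 284, 269 and 239 in WT males and 246, 344 and 296 in hs-KO males. It measured 329, 220, 257, 451 and 311 in WT females and 302, 277, 324, 263 and 317 in hs-KO females. The groups overlapped in every comparison and WT female 4 was the highest array. The sex difference was -0.20 in WT (-0.60 to 0.20, adjusted p = 0.648) and -0.01 in hs-KO, and the genotype difference was 0.14 in males and -0.04 in females. A dimmer second probe, detected on 15 arrays, gave 0.40 for the WT sex difference (SE 0.27), so the 2 probes had opposite signs and neither passed.

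Rxrg, the isotype best known from muscle and brain, gave 40.9, 30.0 and 32.3 in WT males and 99.7, 99.7, 102, 77.6 and 161 in WT females. Every WT female array was above every WT male array. The level was 2.41-fold lower in males (log2 difference -1.27, SE 0.28, limma adjusted p = 0.0156). In hs-KO it gave 72.1, 65.9 and 47.1 in males and 94.4, 74.2, 52.7, 99.8 and 27.5 in females, which overlapped fully, and the sex difference was -0.07 (-0.66 to 0.52, adjusted p = 0.943). hs-KO males lay above WT males without overlap (0.62, adjusted p = 0.383), and hs-KO females lay mostly below WT females (-0.59, adjusted p = 0.303). The test of the difference between the 2 sex effects gave 1.20 (SE 0.39, unadjusted p = 0.00744) and missed the threshold after adjustment (limma adjusted p = 0.48), so a sex effect particular to WT was not shown. The WT call was lost without male WT 2 (adjusted p = 0.0881) or male WT 3 (0.0821).

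**Figure D3:**
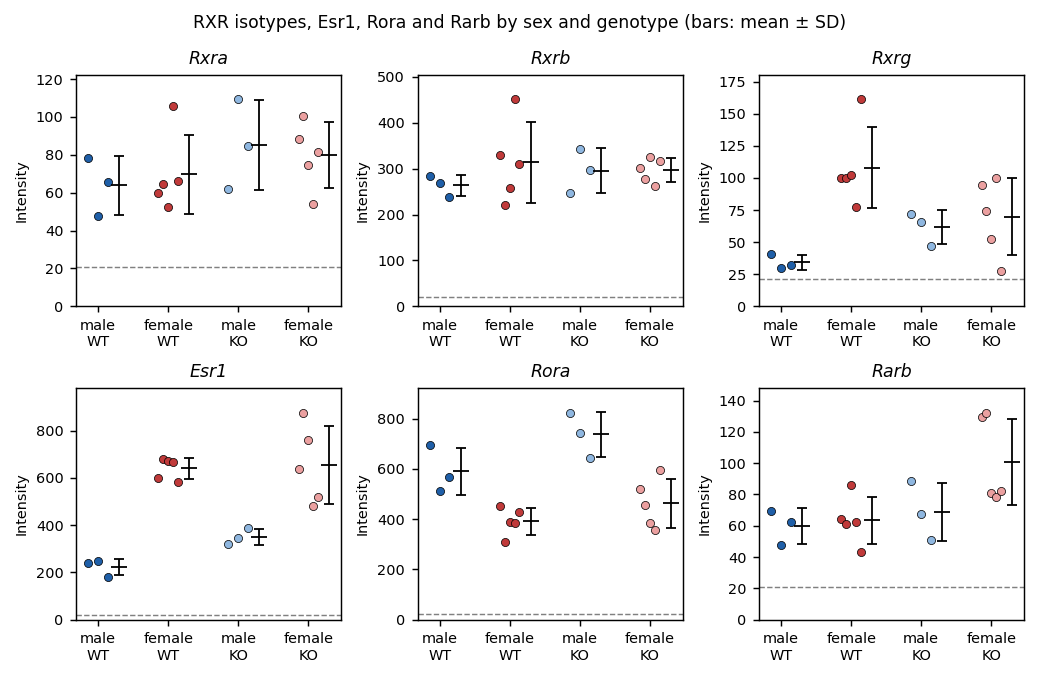
Intensity (linear axes from 0) of Rxra, Rxrb, Rxrg, Esr1, Rora and Rarb on every array of the 4 groups, with mean ± SD (n = 3 males, n = 5 females per genotype; KO is hs-KO) and a dashed line at the detection threshold. Every WT male lies below every WT female for Rxrg (30.0 to 40.9 in males), and males of each genotype lie below its females for Esr1 (182 to 388 in males).

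The permissive partners were all detected, and none passed in any of the 5 comparisons. Of the 7 tested, 1 (Nr1i3) had an unadjusted p under 0.05 between WT sexes, 1 (Nr1h3) between hs-KO sexes and 2 (Nr1h4 and Nr1i3) between male genotypes. The shares of all genes at this limit were 17.4%, 14% and 14.3%. Nr1h4 encodes FXR, the bile acid receptor. It measured 2476, 1961 and 2542 in WT males and 3808, 3199 and 3063 in hs-KO males, with no overlap. The difference was 0.53 (SE 0.17, unadjusted p = 0.00773, limma adjusted p = 0.158). In females it measured 2530, 2232, 2478, 2484 and 3136 in WT and 2996, 3439, 2723, 2506 and 3194 in hs-KO, which overlapped, with a difference of 0.21 (adjusted p = 0.627).

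Nr1i3 encodes CAR, a receptor that induces drug-metabolizing enzymes. It measured 673, 1051 and 823 in WT males and 1288, 1570 and 1615 in hs-KO males, so every hs-KO male was above every WT male (0.82, SE 0.26, limma adjusted p = 0.139). WT females measured 1536, 948, 976, 1710 and 1714, of which 2 were within the range of WT males (sex difference -0.66, adjusted p = 0.136). Of hs-KO females 4 lay between 1788 and 1875 and the fifth, hs-KO 8, at 1209. Nr1i3 had 3 other tested probes. A pair of them, about as bright, gave 0.64 and 0.68 for the male genotype difference, and the third, at 28 units or below, gave -0.45 (SE 0.34). None of these probes passed.

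Nr1h3, the liver X receptor α that senses oxysterols, measured 1933, 2192 and 2381 in WT males and 2362, 1685 and 1755 in hs-KO males. In females it measured 2172, 2917, 2672, 1406 and 2779 in WT and 2482, 2461, 2570, 3644 and 2491 in hs-KO. WT sexes overlapped, whereas all hs-KO males were below all hs-KO females (-0.49, SE 0.22, limma adjusted p = 0.328). A dimmer second probe, also detected on all 16 arrays, overlapped there (309 to 366 in males, 308 to 612 in females) and gave -0.17 (limma adjusted p = 0.847 over all probes). Nr1i2, which encodes the xenobiotic receptor PXR, measured 441, 440 and 373 in WT males and 383, 349 and 373 in hs-KO males, and 409, 382, 431, 564 and 394 in WT females and 459, 458, 386, 506 and 342 in hs-KO females. All its groups overlapped, with differences between -0.20 and -0.02 over the 4 pairwise comparisons.

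Of the PPARs, which bind fatty acids, Ppara was detected on 10 arrays, at 12.2 to 49.7, and on none of the 3 WT males, where only an upper bound is known. Pparg, the isotype of fat storage, measured 69.2, 106 and 78.6 in WT males, 65.2, 40.3 and 77.5 in hs-KO males, 75.6, 72.3, 62.7, 109 and 199 in WT females and 117, 55.6, 96.0, 44.6 and 67.7 in hs-KO females. All its groups overlapped. Ppard, the broadly expressed isotype, measured 101, 25.7 and 43.1 in WT males and 328, 33.2, 59.0, 221 and 68.9 in WT females, a spread within 1 group far wider than the distance between groups. Among hs-KO arrays it measured 101, 105 and 129 in males and 157, 119, 67.0, 37.6 and 124 in females. Its male genotype difference of 0.94 had an interval of -0.36 to 2.24 (adjusted p = 0.501).

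The nonpermissive partners detected on at least 3 arrays were Rarb (16 arrays), Rarg (5) and Vdr (3). Rarb, the retinoic acid receptor β whose window is given above, measured 64.5, 61.1, 85.8, 62.3 and 43.4 in WT females and 129, 132, 81.0, 78.5 and 82.1 in hs-KO females. The highest WT female lay above 3 hs-KO females. The difference was 0.54 (SE 0.19, unadjusted p = 0.0097, limma adjusted p = 0.182). The second Rarb probe measured 42.2, 50.8, 79.7, 34.6 and 61.4 in WT females and 82.2 to 137 in hs-KO females, without overlap. In a fit to all 14946 detected probes it rose by 0.77 (SE 0.19, adjusted p = 0.0425), while the first probe did not pass there either (limma adjusted p = 0.195). The call of the second probe was lost when any of 12 of the 16 arrays was left out (limma adjusted p = 0.0531 to 0.121). In males Rarb measured 69.5, 47.5 and 62.4 in WT and 88.3, 67.2 and 51.0 in hs-KO, a difference of 0.15 (-0.36 to 0.66). Stellate cells are a main site of retinoid storage in liver, and their 10 summed markers were 10508 to 11868 in WT females and 10518 to 12699 in hs-KO females. Their part in the Rarb values was not tested. Rarg (3.05 to 40.7) and Vdr (-2.58 to 32.5), the vitamin D receptor, were below the threshold on most arrays and did not pass.

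Among the receptors of the circadian loop, which bind the same DNA elements with opposite effects, Rora was higher in males in both genotypes without passing. This activator measured 511 to 694 in WT males and 309 to 451 in WT females, and 644 to 823 in hs-KO males and 357 to 597 in hs-KO females. Sexes did not overlap in either genotype. The difference was 0.57 in WT (SE 0.18, limma adjusted p = 0.1) and 0.67 in hs-KO (SE 0.18, adjusted p = 0.0707). The hs-KO value passed without female hs-KO 10 (adjusted p = 0.0355). The repressors Nr1d2 (510 to 1628) and Nr1d1 (5.28 to 186, detected on 14 arrays) overlapped between all groups compared. Of 15 core clock and output genes listed, 10 were tested and 0 passed with limma in any comparison. At an unadjusted p under 0.05 there were at most 2, where the shares of all genes were 8.62% to 17.4%. Between male genotypes 8 of the 10 lay above 0, with a median of 0.64 (0.02 over all genes). Of the 10, 5 had no overlap between male genotypes, beside 23.2% of all genes. Between female genotypes 7 lay above 0, with a median of 0.12 (0.00 over all genes), and 0 had no overlap, beside 3.89%. Collection times were not given in the sources used here, and their part in these values was not tested. Dbp, a clock output gene, spanned 211 to 4660 within WT females.

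The other orphan receptors did not pass in any comparison. Hnf4a, the orphan receptor that maintains hepatocyte identity, ran from 2986 to 5530 in WT males, 3427 to 8499 in WT females, 4760 to 5980 in hs-KO males and 2697 to 6920 in hs-KO females, and all groups overlapped. Nr5a2, which encodes LRH-1, a regulator of bile acid synthesis, ran from 337 to 793, Esrra, a regulator of mitochondrial genes, from 320 to 602, and Nr2f6 from 863 to 1614. Nr6a1, the germ cell nuclear factor, was 67.4 to 101 in WT males and 123 to 168 in hs-KO males, without overlap (0.69, SE 0.27, adjusted p = 0.246). Nr2c1 ran from 45.4 to 102 and Nr2f2, which encodes COUP-TFII, from 13.1 to 45.9. Nr2e1, known as a neural stem cell receptor, was 21.8 to 30.1 in WT males and below the threshold on all 5 WT female arrays. Its level was at least 1.16-fold higher in WT males (adjusted p = 0.154), where the bound sets each dim array at its lowest detected signal.

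**Figure D4:**
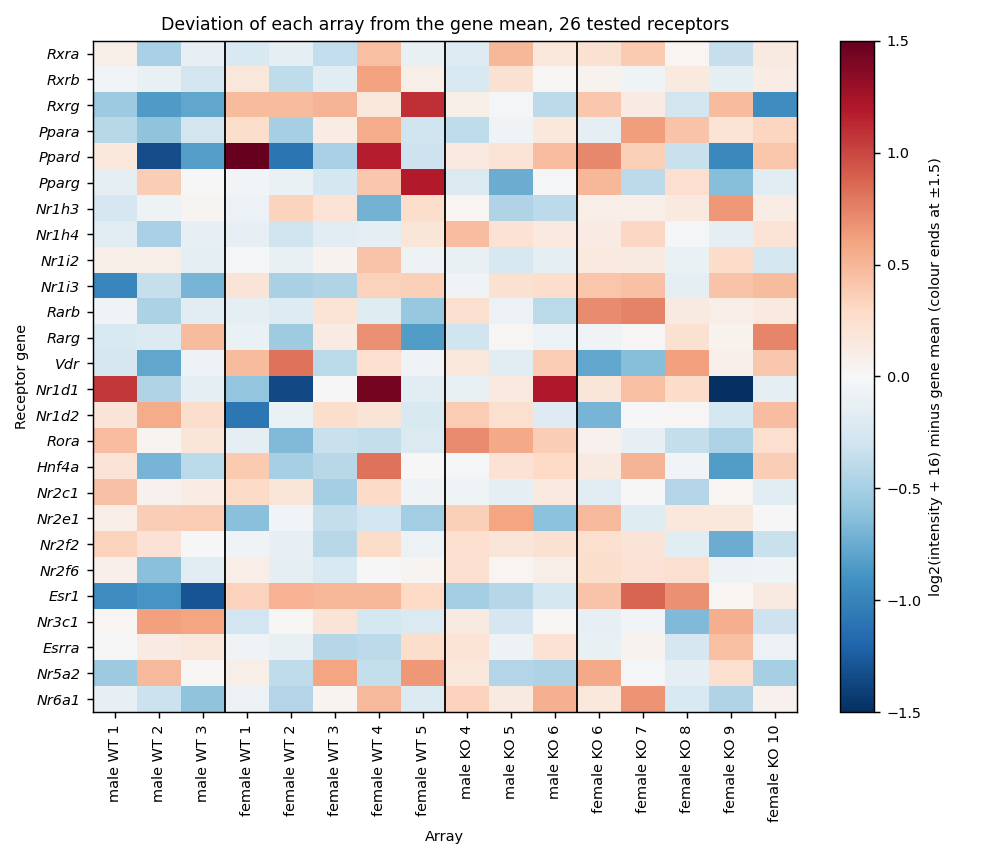
Deviation of each array from the mean of each of the 26 tested receptors, in log2(intensity + 16), with colours ending at ±1.5. Columns are the 16 arrays in groups separated by lines (KO is hs-KO), and the strongest colours fall in Ppard, Nr1d1 and Esr1, with Ppard and Nr1d1 varying inside groups.

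Of the steroid receptors only Esr1 and Nr3c1 were detected, and Esr1 had the lowest p of the family. Esr1 encodes the estrogen receptor α, the hepatic receptor through which estrogens act. It measured 238, 248 and 182 in WT males and 599, 681, 672, 667 and 583 in WT females, a wide gap between the sexes with no overlap. The level was 2.77-fold lower in males (log2 difference -1.47, SE 0.18, limma adjusted p = 0.000101). The hs-KO arrays measured 322, 344 and 388 in males and 639, 876, 763, 480 and 519 in females, again without overlap, and were 1.79-fold lower in males (-0.84, SE 0.18, adjusted p = 0.0192). That call was lost without male hs-KO 4 (adjusted p = 0.106), male hs-KO 5 (0.0992) or female hs-KO 8 (0.0518). The WT call held under every alternative tried, with adjusted p between 3.54e-06 and 0.0364. Esr1 had 4 probes, and only 1, the brightest, was detected on at least 3 arrays, so both calls rest on it. The dimmer ones reached at most 29.7, 17.6 and 9.05 and were above the threshold on 2, 0 and 0 arrays.

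Every hs-KO male was above every WT male for Esr1, while female genotypes had the same mean. The genotype difference was 0.63 in males (SE 0.21, unadjusted p = 0.00747, limma adjusted p = 0.155) and 0.00 in females (-0.34 to 0.34). The difference between the sex effects of the genotypes was 0.63 (unadjusted p = 0.0278, adjusted p = 0.564) and was not established. Nr3c1, the glucocorticoid receptor, gave 47.3 to 79.2 in WT males, 34.8 to 55.1 in WT females, 35.9 to 52.3 in hs-KO males and 23.1 to 74.6 in hs-KO females. Its WT sex difference of 0.52 did not pass (adjusted p = 0.255).

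Summed markers of 2 other liver cell types were lower in males beside Esr1 and Rxrg, with 1 of their genes passing. The 10 summed sinusoidal endothelium markers, of which 9 were detected and Kdr on no array, were 7539 to 8431 in WT males and 8727 to 10655 in WT females, and 7771 to 8976 and 9381 to 10769 in hs-KO. The 10 summed stellate cell markers, of which 9 were detected, were 8705 to 9181 in WT males and 10508 to 11868 in WT females, and 9028 to 10555 and 10518 to 12699 in hs-KO, which overlapped. Of the endothelial markers Pecam1 passed in both genotypes, 1.66-fold lower in WT males (adjusted p = 0.0396) and 1.73-fold lower in hs-KO males (adjusted p = 0.0331). The Pecam1 call was lost when any of 10 arrays was left out in WT (adjusted p = 0.0504 to 0.155) and without any 1 hs-KO male or female hs-KO 6 in hs-KO (0.0672 to 0.157). None of the 9 tested stellate markers passed in either genotype, and 3 of the 9 were above 0 in WT and 4 in hs-KO. None of the 9 tested endothelial markers was above 0 in WT and 3 were in hs-KO. For Kupffer cells and macrophages 0 of 8 tested markers were above 0 between WT sexes, with a median of -0.44, and 0 passed with limma. At an unadjusted p under 0.05 there were 2, beside 17.4% of all genes. Alb, the hepatocyte product albumin, was 564 to 842 in WT males and 1065 to 1668 in WT females and was 1.96-fold lower in males (limma adjusted p = 0.0237), a call lost without male WT 2, male WT 3 or female WT 3 (0.0536 to 0.144). Of the 8 hepatocyte markers Alb alone passed between WT sexes, 2 were above 0, and the median was -0.19. The summed hepatocyte markers overlapped, at 142342 to 162441 in WT males and 149783 to 161354 in WT females. The part of these cells in the Esr1 and Rxrg values was not tested.

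Of 16 listed coactivators of the receptors 13 were tested, and 1 passed between WT sexes (7.69%, beside 3.73% of all genes) and 1 between male genotypes (7.69%, beside 1.56%). Prmt1, an arginine methyltransferase, was higher in males in WT (125 to 162 against 55.3 to 74.2, 1.90-fold, limma adjusted p = 0.00356), a call lost over WT arrays 1 to 3 of both sexes with the array number as a block (0.112) or without it (0.0653). Ppargc1a, the energy-sensing coactivator PGC-1α, fell in hs-KO males (43.8 to 65.0 in WT, 14.5 to 24.3 in hs-KO, where 2 of 3 arrays detected it), with a log2 difference of -0.96 (limma adjusted p = 0.0234). Of 10 corepressors 8 were tested, and 1 passed between female genotypes (12.5%, beside 2.38%). This was Hr, a corepressor of the thyroid hormone and vitamin D receptors, which fell in hs-KO females (31.2 to 127 in WT, -0.17 to 29.8 in hs-KO, where 2 of 5 arrays detected it), with a log2 difference of -1.34 (limma adjusted p = 0.0323). The Ppargc1a call was lost without male WT 1, male WT 3 or any 1 hs-KO male (adjusted p = 0.0502 to 0.142), and the Hr call without female WT 1, 2 or 3 or female hs-KO 6, 8 or 10 (0.0604 to 0.0836). Ppargc1a was also lost with an offset of 50 (limma adjusted p = 0.0588) or with values shifted instead of floored (0.0506). Hr was also lost with an offset of 4 (0.0623) or without the detection filter (0.0765). The remaining tested coregulators did not pass in these comparisons.

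No receptor passed between genotypes by its main probe, and several of the genes that RXR pairs are known to control did. The target lists here and below were chosen with earlier results of these data known. Their counts are therefore descriptions and do not test a contrast with the receptors. Among 8 tested of 14 listed PPAR targets, Acaa1b, a peroxisomal thiolase, was 7484 to 11169 in WT males and 953 to 1618 in hs-KO males, and fell 7.15-fold (log2 difference -2.84, limma adjusted p = 0.000146). In females it was 7045 to 17581 in WT and 1438 to 2365 in hs-KO and fell 6.74-fold (adjusted p = 7.31e-06). Both sexes were separated by genotype without overlap. Cyp4a14, a fatty acid hydroxylase, fell 18.5-fold in females (733 to 5614 in WT, 29.5 to 302 in hs-KO, adjusted p = 0.0031), and in males was 118 to 413 in WT and -1.40 to 147 in hs-KO, where 1 of 3 arrays detected it, without passing (limma adjusted p = 0.166). Pdk4, a kinase that restrains glucose oxidation, rose 4.92-fold in males (21.4 to 97.8 in WT, 159 to 597 in hs-KO, adjusted p = 0.0198). In WT liver Ehhadh, a peroxisomal enzyme of fatty acid oxidation, was 1.94-fold lower in males (adjusted p = 0.0016), a call lost over WT arrays 1 to 3 of both sexes with the array number as a block (0.114) or without it (0.0858). The Acaa1b and Cyp4a14 calls held under every alternative tried, whereas that of Pdk4 was lost without male WT 2, male WT 3, male hs-KO 4 or male hs-KO 6 (adjusted p = 0.0552 to 0.12). Of the 8 tested, 25% passed between male genotypes, beside 1.56% of all genes, and 25% between female genotypes, beside 2.38%. Between WT sexes 12.5% passed, beside 3.73%. The median PPAR target difference was -0.81 in males and -0.95 in females.

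Of 9 CAR and PXR targets, 8 were tested. Between genotypes 37.5% of the 8 passed in males, beside 1.56% of all genes, and 25% in females, beside 2.38%. Between sexes 12.5% passed in WT, beside 3.73%, and 25% in hs-KO, beside 2.38%. Abcc3, a conjugate exporter, fell 2.97-fold in males (625 to 1003 in WT, 228 to 302 in hs-KO, limma adjusted p = 0.0018) and 2.14-fold in females (958 to 1467 in WT, 412 to 730 in hs-KO, adjusted p = 0.00309). Ugt1a1, the bilirubin-conjugating enzyme, fell 3.39-fold in males (282 to 384 in WT, 61.3 to 125 in hs-KO, adjusted p = 0.00409) and 2.03-fold in females (441 to 777 in WT, 174 to 377 in hs-KO, adjusted p = 0.0254). Neither gene overlapped between genotypes in either sex. Gstm3, a glutathione transferase, rose in males (4.71 to 47.6 in WT, where 2 of 3 arrays detected it, 113 to 186 in hs-KO), with a log2 difference of 2.11 (limma adjusted p = 0.00341). That call was lost in a fit to only the male groups (0.0502). The Abcc3 calls and the male Ugt1a1 call held under every alternative, and the female Ugt1a1 call was lost without female WT 1, female WT 4, female hs-KO 7 or female hs-KO 9 (adjusted p = 0.0595 to 0.0732). The list held changes in both directions in males, and its median difference was 0.01 in males and -0.20 in females. In WT liver Cyp3a11, the main murine drug-oxidizing enzyme of its family, was 2.96-fold lower in males (adjusted p = 0.00356), and in hs-KO liver Ugt1a1 (2.98-fold) and Abcc3 (1.94-fold) were lower in males, of which the Abcc3 call was lost without any 1 hs-KO male (adjusted p = 0.0547 to 0.117).

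Of the 4 thyroid hormone targets 3 were tested. All 3 passed between female genotypes, lower in hs-KO, beside 2.38% of all genes, and 1 in males, beside 1.56%. Their receptors Thra and Thrb were detected on no array. Dio1, the deiodinase that activates thyroid hormone, was 231 to 2044 in WT females and 53.8 to 240 in WT males and was below the threshold on all 8 hs-KO arrays. It was at least 17.6-fold lower in hs-KO females (limma adjusted p = 4.91e-06) and at least 3.58-fold lower in hs-KO males (adjusted p = 0.00912). Between WT sexes it was 4.90-fold lower in males (adjusted p = 0.0146). Thrsp, a regulator of lipogenesis, fell 3.38-fold in females (1405 to 4872 in WT, 320 to 1677 in hs-KO, adjusted p = 0.0344), with overlap, and Hr is the corepressor given above. The call of Dio1 in females held under every alternative. In males it was lost without male WT 3 (adjusted p = 0.0616), with the median over probes (0.336) and with an offset of 50 (0.0718), and that between WT sexes without male WT 1 (0.0713) or male WT 2 (0.0686). Thrsp was lost without female WT 2, 3 or 4 or female hs-KO 6, 7, 8 or 10 (0.056 to 0.0881) and with the median over probes (0.397). In males Thrsp differed by -1.33 (adjusted p = 0.264).

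The other target lists held 1 call or none in each comparison, where 0.0909% to 3.73% of all genes passed. Of 7 FXR targets 5 were tested. At an unadjusted p under 0.05, 3 were lower and 1 higher in hs-KO in each sex, beside the 14.3% and 12.4% of genes in either direction, and the list's median difference was -0.56 in males and -0.49 in females. Slc51b, the bile acid exporter subunit OSTβ, was 36.0 to 222 in WT females and below the threshold on all hs-KO arrays, at least 2.77-fold lower in females (limma adjusted p = 0.00214). In males it was 27.7 to 70.8 in WT, and the difference of -1.66 did not pass (adjusted p = 0.11). Of 9 LXR targets 7 were tested. Pltp, a phospholipid transfer protein, was lower in WT males, where 2 of 3 arrays detected it, than in WT females (log2 difference -1.20, limma adjusted p = 0.0489). Between genotypes there were 0 calls. At an unadjusted p under 0.05 there were 1 gene in males and 2 in females, beside 14.3% and 12.4% of all genes. The Slc51b call held under every alternative, and the Pltp call was lost when any of 11 arrays was left out (adjusted p = 0.0558 to 0.246). Of 7 retinoic acid receptor targets 3 were tested, Rarb itself among them. In any of the 5 comparisons 0 passed, with at most 2 at an unadjusted p under 0.05. Of 10 immediate early genes, a group that responds to handling, 8 were tested and 0 passed, with at most 3 at an unadjusted p under 0.05. Over the 5 comparisons 8.62% to 17.4% of all genes had an unadjusted p this low. Of 6 exocrine pancreas markers 2 were tested, and Cpa1, Ctrb1 and Prss2 were detected on no array. Of the tested markers Amy2a5 was higher in hs-KO in both sexes (1.66-fold in males, limma adjusted p = 0.0407, and 1.55-fold in females, adjusted p = 0.0177), and its part in the genotype differences above was not tested. Its male call was lost when any of 11 arrays was left out (adjusted p = 0.0529 to 0.172) and its female call without female hs-KO 6 (0.0573).

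**Figure D5:**
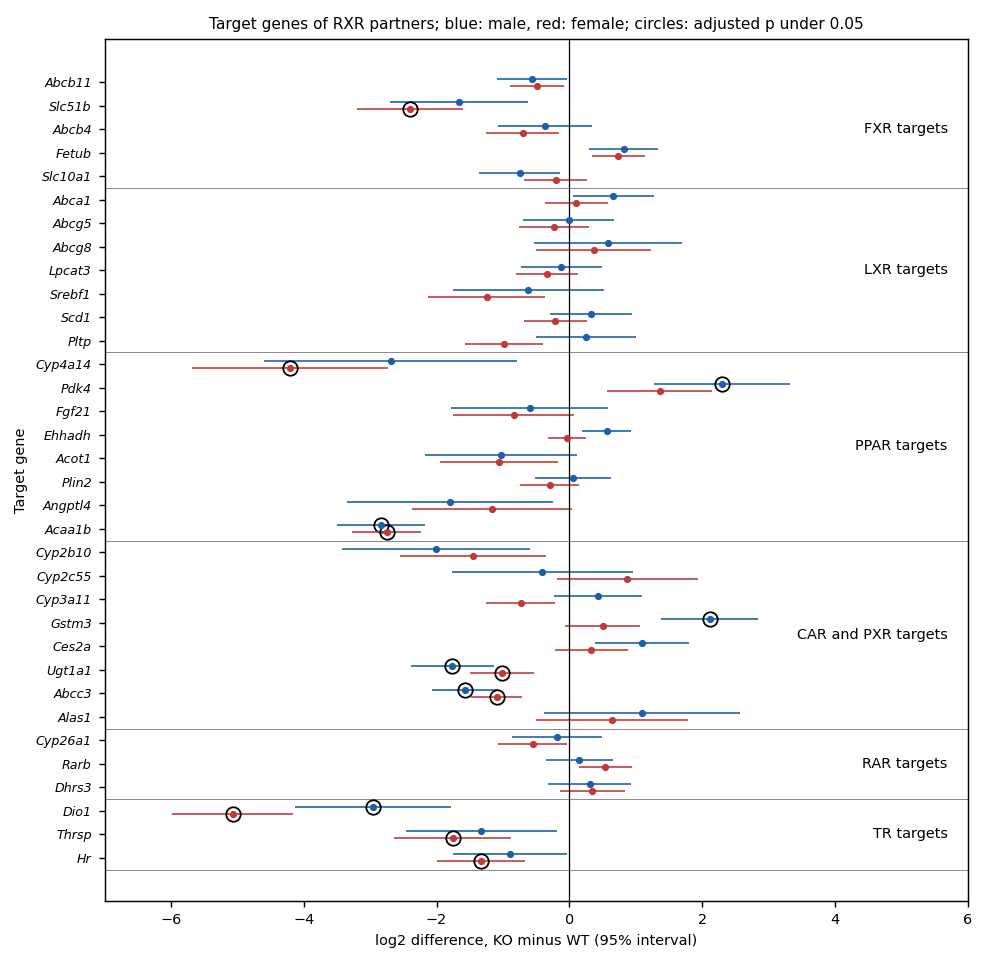
log2 differences, hs-KO minus WT, with 95% intervals for the tested target genes of 6 receptor groups, males in blue and females in red. Circles mark an adjusted p under 0.05, among them Dio1, Acaa1b, Abcc3 and Ugt1a1 in both sexes.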

How the data were processed

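RNA was measured in 16 liver samples, 1 array each. The deposited table held intensity values for 45281 probes that the authors, per the labels, made with lumi (version not given in the sources used here). They ran from -23.7 to 43731, with negative values as after background subtraction. The columns shared nearly 1 distribution, as after quantile normalization, a step that forces equal spreads on all arrays. A second table was not used, because its 32 columns of unnormalized signals and detection values could not be matched to samples by the labels. Groups, sexes and numbers came from the labels. Gene names came from the platform annotation (34885 probes with 1 gene, 18 with several, 10378 unnamed).

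Before the log2 step, negative intensities were raised to 0 and every value received an offset of 16. Genes detected on at least 3 arrays were kept, each by its brightest probe, giving 9906. Group means were fitted over all of them with limma 3.58.1 (lmFit and eBayes) in R 4.3.3, with 12 residual and 4.03 prior degrees of freedom, a median residual SD of 0.321 and Benjamini-Hochberg adjustment at 0.05. Intervals are at 95%, and the small number of arrays limits the precision. The sex comparisons share arrays with the genotype comparisons. The code was tested on simulated data. Alternatives changed the offset, the filter, the probe rule, the floor, array weights, the variance trend, the arrays fitted, the block and each array left out. The receptors, coregulator, target, clock, immediate early and cell marker lists were chosen with earlier results of these data known, so their counts are descriptions. By rule, values on every array are given for the RXR isotypes, receptors that passed and RXR partners detected on at least 12 arrays, and of the other lists up to 4 genes that passed. Rora, Nr6a1, Nr2e1, Nr3c1 and the second Rarb probe were singled out after their values were seen. Promoter windows came from RefSeq, build GRCm38.p6.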

Additional observations from a re-analysis of the deposited data

Results flagged for a closer look

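Each receptor was checked in the female groups of 5 for an array far from the other 4, by Dixon's test at its 95% limit. Of 52 receptor and group pairs 3 (5.77%) held such an array, and chance gives about 1 in 20. Nr1h3 measured 3643.6 in female hs-KO 9, and the other 4 females of that genotype measured 2460.55 to 2570.11. Nr1i3 measured 1208.78 in female hs-KO 8, against 1787.9 to 1875.02. Nr1d1 measured 5.28 in female hs-KO 9, below the detection threshold, against 52.06 to 86.31. Female hs-KO 9 was also among the arrays with the lowest correlation to its group. None of the 3 genes passed between groups.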

How the results depend on the processing

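The count of receptors detected ran from 23 to 28, and the counts of receptors between female genotypes and for the interaction stayed at 0 in every alternative fit with 1 value per gene (the fit to all probes passed the second Rarb probe in females). No result that had passed changed direction. Leaving out each array in turn gave, between WT sexes, 169 to 400 genes and 1 to 2 receptors, between hs-KO sexes 117 to 277 genes and 0 to 2 receptors, between male genotypes 81 to 199 genes and 0 receptors, between female genotypes 162 to 241 genes and for the interaction 3 to 9 genes. The lowest gene counts came without male WT 2 or male WT 3 between WT sexes (172 and 169), without male WT 2, male WT 3, male hs-KO 4 or male hs-KO 5 between male genotypes (81, 85, 84 and 88), and without male hs-KO 4 or 5 between hs-KO sexes (147 and 117). Array weights raised the counts most, to 1409 genes and 6 receptors (Esr1, Nr1i3, Nr2e1, Nr3c1, Rora and Rxrg) between WT sexes, 504 genes and 2 receptors (Esr1 and Rora) between hs-KO sexes, 1615 genes and 4 receptors (Esr1, Nr1h4, Nr1i3 and Nr6a1) between male genotypes and 42 genes for the interaction, and the cause was not tested. An offset of 50, or shifting instead of flooring, gave 2 receptors between hs-KO sexes (Esr1 and Rora). Some change of the offset, floor or filter lost the calls of Pltp and Pecam1 between WT sexes and Pecam1 between hs-KO sexes. The calls of Pdk4 in males and of Thrsp and Ugt1a1 in females were lost in the same way (limma adjusted p = 0.0518 to 0.0932). A fit to only the groups compared, with fewer arrays, gave 172 genes between WT sexes, 137 between female genotypes and 0 receptors between hs-KO sexes, where Esr1 had an adjusted p of 0.0781. That fit also lost the calls of Pltp, Dio1 and Alb between WT sexes, Pecam1 between hs-KO sexes, Ppargc1a, Pdk4, Gstm3 and Amy2a5 in males, and Hr, Ugt1a1, Thrsp and Amy2a5 in females (adjusted p = 0.0502 to 0.119). The interaction gave 5 genes with an offset of 4 or the median over probes and 1 with detection on at least 8 arrays. Without female WT 4 and female hs-KO 9, an alternative chosen after seeing the data, 288 genes passed between male genotypes.

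Numbers 1 to 3 recur in both WT sexes. Deviations of same-numbered arrays correlated at 0.098, 0.261 and 0.075, so the numbers were not taken as pairs. With the number as a replicate block over those 6 arrays, 76 genes and 1 receptor (Esr1) passed, and Rxrg had an adjusted p of 0.0544. Without the block over the same arrays, added after seeing the data, 107 genes and both receptors passed. hs-KO sexes share 1 number, and genotypes none, so no block could be fitted there. A planned normexp normalization was not run because the second table could not be matched. The nearly shared distribution of the arrays, as after quantile normalization, and 3 arrays per male group limit what small differences can be seen.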
